A study of Mus musculus with 12 samples.

Results

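Malat1, Neat1, Gas5, Snhg1, Snhg3, Snhg5, Snhg8 and Snhg12 are 8 genes for long noncoding RNAs, chosen by name from the 56748 gene IDs counted in natural killer (NK) cells of the mouse lymph node. These genes and the gene lists below were chosen with earlier results of these data known. All 8 were found by their Ensembl IDs, and all 8 were among the 16016 genes with enough counts to be tested. Malat1 and Neat1 make RNAs that stay in the nucleus, and the other 6 are host genes for small nucleolar RNAs (snoRNAs). NK cells are innate lymphocytes that kill malignant and virus-infected cells. The cells had been sorted from nodes, and their RNA was sequenced in 12 libraries, 4 in each of 3 groups.

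The tumor free group came from nodes of C57BL/6J mice without lymphoma. The lymphatic and the hematogenous group came from nodes that bore diffuse large B cell lymphoma, a cancer of mature B cells, in mouse models where it spreads by lymphatic vessels or by the blood. The labels give no lymphoma line, inoculation site, time, age or sex, and name the strain for the tumor free mice only. Replicates are numbered 1 to 4 and are not stated to be separate animals, so each p-value rests on sample-to-sample variation that could be technical. The comparisons ask how the level of each RNA in nodal NK cells differs with lymphoma that spread by either route, and between the routes. Both models were set against the same 4 tumor free libraries, so the results of these 2 comparisons are not independent.

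Malat1 RNA is among the most abundant long noncoding RNAs of mammalian cells and gathers in nuclear speckles, which store splicing factors. Neat1 RNA is the scaffold of paraspeckles, nuclear bodies that hold RNA-binding proteins such as Sfpq and Nono. A snoRNA host gene is transcribed and spliced like a coding gene, its introns are trimmed into snoRNAs that guide chemical modification of ribosomal RNA, and the joined exons are often short-lived because ribosomes read them and nonsense-mediated decay removes them. Many host genes start in a 5′ terminal oligopyrimidine tract, the feature that marks the mRNAs of ribosomal proteins and ties their translation to growth signals. Libraries were made from poly(A) RNA, so the short polyadenylated form of Neat1 is captured better than its long form, which has no poly(A) tail, and mature snoRNAs are not captured.

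The start regions of the genes are shown first because pyrimidine tracts and TATA boxes are known features of the host gene class, and because 3 of the hosts differed between groups. Each line runs 5′ to 3′ on the strand of the gene from 40 bases before the annotated start to 20 bases from it, from RefSeq on GRCm38.p6, an older build than that of the counts. Capitals mark a run of at least 5 pyrimidines that begins with C within 10 bases of the start, and TATAA between 45 and 20 bases before it.
Malat1 (chr19:5802653-5802712, minus strand): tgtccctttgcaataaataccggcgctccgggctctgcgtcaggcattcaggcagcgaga
Gas5 (chr1:161035126-161035185, plus strand): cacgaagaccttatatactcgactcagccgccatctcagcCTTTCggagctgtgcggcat
Snhg1 (chr19:8723447-8723506, plus strand): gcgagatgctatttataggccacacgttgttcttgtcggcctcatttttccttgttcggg
Snhg5 (chr9:88522878-88522937, minus strand): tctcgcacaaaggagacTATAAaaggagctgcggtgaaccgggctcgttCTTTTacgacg
Snhg8 (chr3:123508317-123508376, minus strand): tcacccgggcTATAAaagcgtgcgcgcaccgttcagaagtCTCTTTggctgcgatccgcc
Snhg12 (chr4:132308638-132308697, plus strand): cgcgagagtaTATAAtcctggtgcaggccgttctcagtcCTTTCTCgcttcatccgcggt

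RefSeq start regions were matched for 7 of the 8 genes, all but Neat1, and Gas5 has 2 annotated starts, of which the one further along the gene is shown. A pyrimidine run began exactly at the start in Gas5 and Snhg8, 1 base before it in Snhg12, 2 bases after it in Snhg3 and 9 bases after it in Snhg5. No such run was found by this rule in Malat1, Snhg1 or the other Gas5 start. The Snhg1 line does hold a run of pyrimidines shortly after the start, but it begins with T, which the rule leaves out. Of 32851 RefSeq start regions of the same length, 2.51% had a run at the start itself and 30.7% had one within 10 bases, so the looser match is common. TATAA stood 30 bases before the start in Snhg8 and Snhg12 and 23 bases before it in Snhg5, against a share of 3.89% of all regions. The Gas5 and Snhg1 lines hold TATA before the start without a further A, which this rule leaves out. Only the strand of the gene was searched. A match describes the letters and is no evidence that the site is used.

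Per kilobase of all annotated exons joined, Malat1 had the highest mean of the 8 in every group. Mean levels in the tumor free group, in CPM (read counts scaled to a common library size by TMM) per kilobase with SD over 4 libraries, were 344 ± 30.4 for Malat1, 60.2 ± 11.0 for Gas5, 51.2 ± 5.70 for Neat1 and 50.5 ± 16.6 for Snhg8. Then came Snhg1 at 21.5 ± 2.19, Snhg5 at 12.0 ± 3.09, Snhg12 at 11.2 ± 2.19 and Snhg3 at 3.93 ± 2.46. The means of Neat1 and Snhg8 lay within 1 SD of Gas5, and those of Snhg5 and Snhg12 within 1 SD of each other. In the hematogenous group Neat1, at 100.3 ± 35.1 CPM per kilobase, had the second highest mean, above Gas5 at 66.9 ± 6.64 and Snhg8 at 61.6 ± 11.7. Lengths are those of all annotated exons joined, in an older annotation (GENCODE M21), so the level of a gene with long rare exons is understated. For Neat1 this length is 20771 bases and takes in the long form, which these libraries capture less well. Its value per kilobase and its rank among the 8, also against Malat1, are therefore uncertain.

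Gene counts per library ran from 6654215 to 43494812 and were lowest in tumor free replicates 1, 2 and 4. Snhg3 had 25 to 136 counts per library, and the other 7 genes had at least 93 in every library. NK cell markers (10 genes, such as Ncr1 and Klrb1c) summed to 13667 to 15394 CPM in tumor free, 12369 to 15315 in lymphatic and 8936 to 10674 in hematogenous libraries. All 10 were detected in each group, and 7 of 10 were lower by the test in hematogenous than in tumor free libraries. T cell markers (8 genes) summed to 195 to 355 CPM in tumor free, 260 to 460 in lymphatic and 443 to 604 in hematogenous libraries, and 3 of 8 were higher in hematogenous than in tumor free libraries. B cell markers (8 genes) summed to 335 to 435, 431 to 828 and 346 to 482 CPM in that order of groups. Myeloid markers (8 genes) summed to 217 to 305 CPM over all 12 libraries, and 4 of 8 were higher in hematogenous than in tumor free libraries. Log2 differences of these 8 ran from -1.54 to 7.31 in that comparison, with 5 above 0. Cd14, 1 of the 8, had 0 counts in all tumor free libraries. Over all genes tested, 9.52% were higher in that comparison and 16.4% differed in either direction. Erythroid markers (5 genes) had median sums of 0.533, 30.6 and 20.6 CPM in tumor free, lymphatic and hematogenous libraries, and 2 of 5 were higher in hematogenous than in tumor free libraries. Stromal and endothelial markers (7 genes) stood at 3.74 CPM or less. The share of reads outside annotated features was 14.8% ± 4.30 in tumor free, 15.7% ± 1.75 in lymphatic and 21.2% ± 3.00 in hematogenous libraries, and was highest within their groups in tumor free replicate 3 at 21.1% and hematogenous replicate 1 at 24.6%. In sorted bulk samples, fewer cells of a type and less RNA per cell cannot be told apart.

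Of the 8 genes, 2 were called higher in the lymphatic than in the tumor free group (Snhg1 and Snhg12), where 2.32% of all genes tested were called higher and 2.74% in either direction. In the hematogenous group 5 of the 8 were called higher than in the tumor free group (Malat1, Neat1, Snhg1, Snhg5 and Snhg12), where 9.52% of all genes were called higher and 16.4% in either direction. None of the 8 was called lower in a model. Because the 8 were chosen with earlier results of these data known, their counts beside the shares of all genes are a description only. Between the models 0 of 8 were called by edgeR, where 8.85% of all genes were, and 1 of 8, Neat1, had an unadjusted p under 0.05 or was called by DESeq2 or by voom. Called means an adjusted p under 0.05 in edgeR's quasi-likelihood test, with Benjamini-Hochberg adjustment over all 16016 genes. The median log2 fold change of the 8 was 0.46, 0.64 and 0.02 in these 3 comparisons, beside 0.08, 0.08 and -0.01 over all genes. Among all genes called in the lymphatic comparison 84.7% were higher, and this share was 73.2% to 75.5% with 3 other scalings. Between the models 33.1% were higher, and 47.4% to 55.8% with the other scalings, so counts of higher and lower genes there depend on the scaling.

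**Figure D1:**
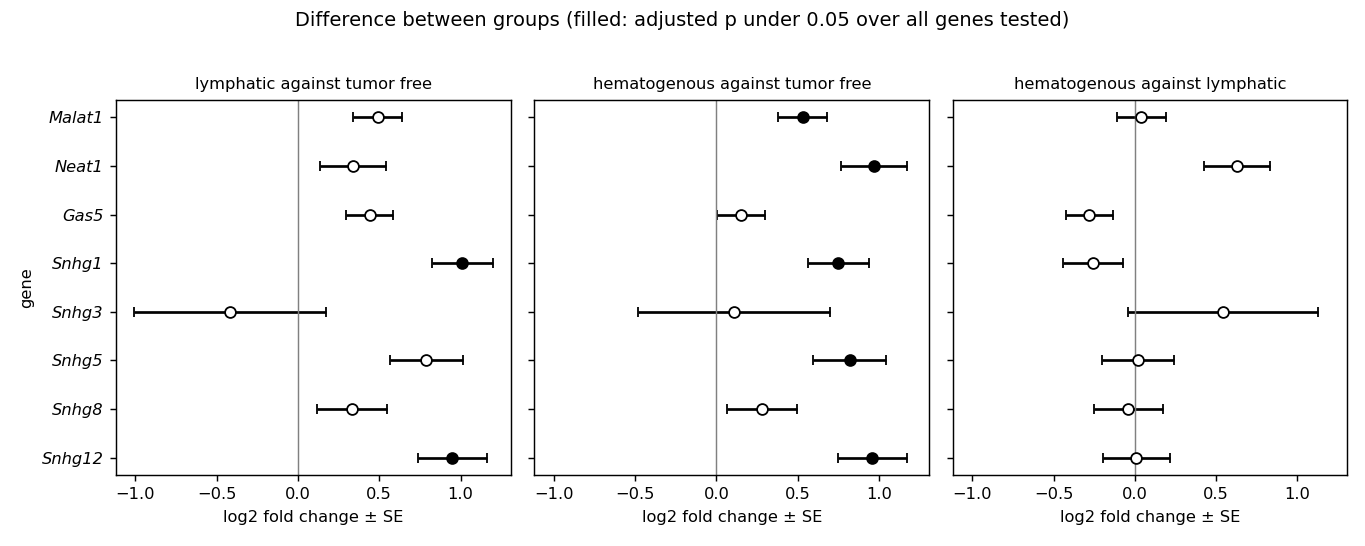
Log2 fold change (x axis) with its standard error for each of the 8 genes (y axis) in the 3 comparisons, from a fit of all 12 libraries. Filled points passed an adjusted p of 0.05: 2 in the lymphatic, 5 in the hematogenous comparison and none between the models.

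The 2 nuclear RNAs were both highest on average in the hematogenous group. Malat1 stood at 2421, 2161, 2674 and 2347 CPM in tumor free replicates 1 to 4. It stood at 3155, 2758, 4558 and 3003 CPM in the lymphatic and at 4268, 3105, 3287 and 3165 CPM in the hematogenous replicates. Every library of either model lay above all 4 tumor free libraries, and the models overlapped each other. Malat1 rose in the hematogenous group by 0.53 on the log2 scale (SE 0.15, adjusted p = 0.0220). The difference of 0.49 (SE 0.15) in the lymphatic group did not pass (adjusted p = 0.0990), and the models differed by 0.04 (SE 0.15, adjusted p = 0.931). Each model has 1 library that stands above its other 3, lymphatic replicate 3 and hematogenous replicate 1. Without hematogenous replicate 1 the hematogenous difference was 0.41 with an adjusted p of 0.0646, and the call was also lost without tumor free replicate 2 (0.0632) or 4 (0.0505).

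Neat1 rose in the hematogenous group by 0.97 on the log2 scale, a fold of 1.96. Its level was 1222, 963.1, 1084 and 983 CPM in tumor free replicates 1 to 4. In the lymphatic replicates it was 1213, 1021, 1946 and 1215 CPM, and in the hematogenous replicates 3141, 1562, 1997 and 1636 CPM. The lymphatic libraries overlapped the tumor free ones, while all 4 hematogenous libraries lay above every tumor free library and 3 of the 4 lymphatic ones. The hematogenous difference (SE 0.20) had an adjusted p of 0.00340 and held when any single library was left out. It was 0.71 without hematogenous replicate 1, the highest library of the series. The lymphatic difference was 0.34 (SE 0.20, adjusted p = 0.511). Between the models Neat1 differed by 0.63 (SE 0.20) with an adjusted p of 0.0602 and an unadjusted p of 0.00589, which made it the only one of the 8 below an unadjusted 0.05 in that comparison. DESeq2 (adjusted p = 0.0194) and voom with quality weights (0.0474) each called Neat1 there and no other of the 8. Under edgeR it also passed without lymphatic replicate 3 (0.0101), hematogenous replicate 2 (0.0286) or hematogenous replicate 4 (0.0326).

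The balance between Neat1 and Malat1 was also examined. The ratio of Neat1 to Malat1 counts within a library, a measure chosen after the values were seen, was 0.505, 0.446, 0.405 and 0.419 in the tumor free replicates. It was 0.384, 0.370, 0.427 and 0.405 in the lymphatic and 0.736, 0.503, 0.608 and 0.517 in the hematogenous replicates. Every hematogenous ratio was above every lymphatic ratio, with an exact permutation p of 0.0286, two-sided, the smallest that 4 against 4 allows, and 0.0643 after adjustment over 9 ratio tests. Against tumor free libraries the hematogenous ratios overlapped and the exact p was 0.0571 (adjusted 0.0857). A ratio within a library does not depend on library scaling, but it does depend on how well poly(A) selection captures each RNA.

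**Figure D2:**
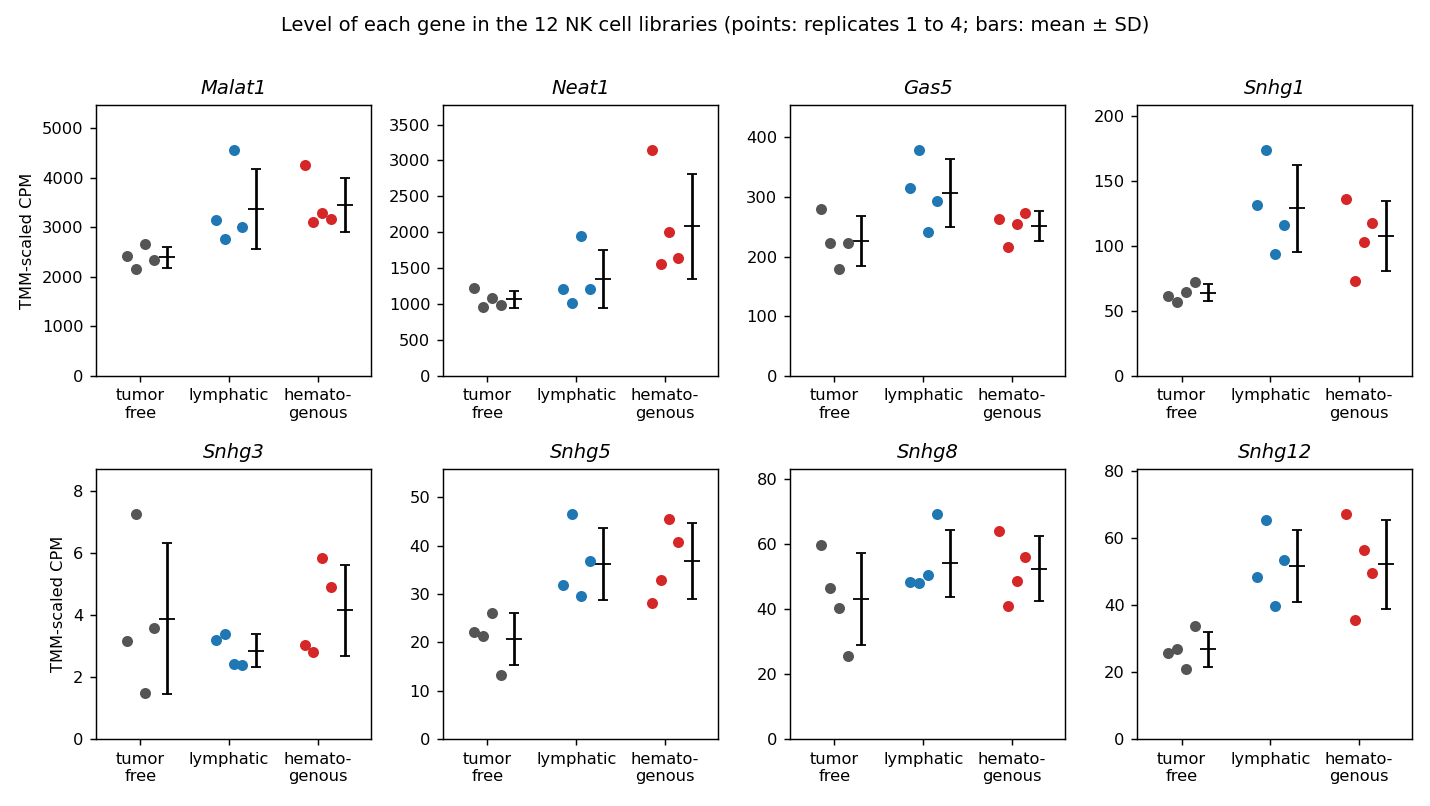
TMM-scaled CPM (y axes, from 0) of each of the 8 genes in every library, by group (x axis), with points for replicates 1 to 4 and a bar for the mean and SD. Snhg1, Snhg5, Snhg12 and Malat1 have no tumor free library as high as any library of a model, Neat1 is high in the hematogenous group, and the groups overlap for Gas5, Snhg3 and Snhg8.

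The 8 genes were also set against the share of reads outside annotated features, a relation examined after the values were seen, and 1 of 16 tests passed, Pearson's for Neat1. Over 12 libraries Pearson's r was 0.78 for Neat1 (permutation p = 0.00251, adjusted 0.0402 over 16 tests) and Spearman's rho 0.71 (permutation p = 0.0134, adjusted 0.0713). For Malat1 r was 0.66 (permutation p = 0.0208, adjusted 0.0832) and rho 0.72 (permutation p = 0.0110, adjusted 0.0713). Without hematogenous replicate 1 and tumor free replicate 2, the libraries farthest from the median share, r fell to 0.57 for Neat1 and 0.38 for Malat1, so the relation rests in part on these libraries. After the group means were subtracted r was 0.54 and 0.64. The 6 host genes had r between -0.19 and 0.39.

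**Figure D3:**
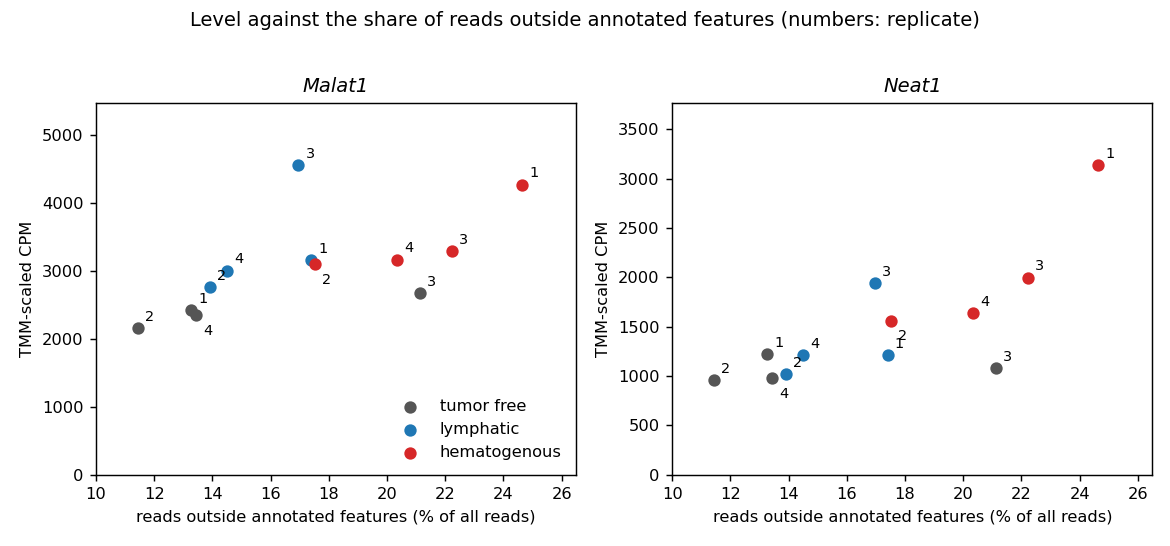
TMM-scaled CPM of Malat1 and Neat1 (y axes) against the percentage of all reads that fell outside annotated features (x axes), 1 point per library with its replicate number. Hematogenous replicate 1 is at the far right with 24.6% and the highest Neat1 level, while tumor free replicate 3, at 21.1%, stands near the other tumor free libraries.

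That share was higher in the hematogenous than in the lymphatic group in all 4 libraries (exact permutation p = 0.0286, adjusted 0.0857 over 9 tests of library measures) and overlapped with the tumor free group (exact p = 0.0857). With the share as a covariate 0 of the 8 genes were called by edgeR in the hematogenous group (3 had an unadjusted p under 0.05), and the number of all genes called there fell from 2625 to 253. The log2 differences became 0.21 for Malat1 (adjusted p = 0.739), 0.49 for Neat1 (0.479), 0.59 for Snhg1 (0.353), 0.76 for Snhg5 (0.244) and 0.99 for Snhg12 (0.139). Those of Snhg12 and Snhg5 were thus close to the values without the covariate, 0.96 and 0.82, while those of both nuclear RNAs were lower. Because the share moves with the group, the group and the share cannot be told apart in that fit. Without tumor free replicate 3 and hematogenous replicate 1, a pair removed after the data were seen because each had the highest share in its group, Neat1 at 0.72 (adjusted p = 0.0256), Snhg5 at 1.07 (0.0109) and Snhg12 at 0.72 (0.0421) were still called. Malat1 at 0.47 (adjusted p = 0.0565) and Snhg1 at 0.62 (0.0631) were not.

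Among the 6 snoRNA hosts, Snhg1 and Snhg12 were the 2 that were called higher in both models. Snhg1, whose introns hold a cluster of box C/D snoRNAs, stood at 61.6, 57.1, 64.6 and 72.5 CPM in tumor free replicates 1 to 4. It was at 131.7, 173.6, 93.8 and 116.2 CPM in the lymphatic and at 136.4, 73.2, 103.2 and 117.8 CPM in the hematogenous replicates. The tumor free libraries spanned a narrow range and all lay below both models, with hematogenous replicate 2 only just above them. Snhg1 rose by 1.01 in the lymphatic (SE 0.19, adjusted p = 0.00361) and by 0.75 in the hematogenous group (SE 0.19, adjusted p = 0.0103). The models differed by -0.26 (SE 0.18, adjusted p = 0.466). The lymphatic call held in all 24 alternative analyses, with log2 differences of 0.80 to 1.15. The hematogenous call was lost with voom (adjusted p = 0.0553).

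Snhg12, which hosts box H/ACA snoRNAs and Snord99, stood at 25.6, 26.9, 21.1 and 33.8 CPM in the tumor free replicates. It was at 48.3, 65.4, 39.8 and 53.5 CPM in the lymphatic and at 67.2, 35.5, 56.4 and 49.7 CPM in the hematogenous replicates. As for Snhg1, all 8 libraries of the models were above all tumor free libraries. Snhg12 rose by 0.95 in the lymphatic (SE 0.21, adjusted p = 0.0148) and by 0.96 in the hematogenous group (SE 0.21, adjusted p = 0.00453), and the models differed by 0.01 (SE 0.21, adjusted p = 0.991). The lymphatic call was lost without tumor free replicate 1 (adjusted p = 0.0529), lymphatic replicate 2 (0.0812) or lymphatic replicate 4 (0.0627).

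Snhg5, host of the box C/D snoRNAs Snord50a and Snord50b, had a similar size of difference in both models. It stood at 22.2, 21.3, 26.2 and 13.4 CPM in the tumor free, 31.9, 46.5, 29.6 and 36.8 CPM in the lymphatic and 28.1, 33.0, 45.5 and 40.8 CPM in the hematogenous replicates. No library of a model was as low as a tumor free library, though tumor free replicate 3 and hematogenous replicate 1 were close. The log2 difference was 0.82 in the hematogenous group (SE 0.23, adjusted p = 0.0176), called, and 0.79 in the lymphatic group (SE 0.23, adjusted p = 0.0666), not called. The models differed by 0.02 (SE 0.22, adjusted p = 0.972). Without hematogenous replicate 3 the hematogenous call was lost (adjusted p = 0.0690), and without tumor free replicate 3 the lymphatic difference passed (0.94, adjusted p = 0.0427).

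Gas5, a host of many box C/D snoRNAs whose spliced RNA is known to accumulate in growth-arrested cells, was the most abundant host by count and did not pass the test in any comparison. It stood at 280.2, 223.3, 179.1 and 222.6 CPM in the tumor free, 314.2, 378.2, 241.1 and 292.6 CPM in the lymphatic and 262.4, 216.2, 254.6 and 273.7 CPM in the hematogenous replicates. Of the lymphatic libraries, 3 of 4 lay above every tumor free library, and the hematogenous libraries lay inside the tumor free range. The log2 differences were 0.44 (SE 0.15, adjusted p = 0.139) in the lymphatic and 0.15 (SE 0.15, adjusted p = 0.536) in the hematogenous group, and -0.28 (SE 0.15, adjusted p = 0.275) between the models. Gas5 overlaps Zbtb37 on the opposite strand, and the strand setting of the counting is not given in the sources used here, so reads of this pair may not be separable. Zbtb37, a zinc finger gene, rose by 0.93 in the hematogenous group (SE 0.20, adjusted p = 0.00377).

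Within libraries, Snhg1 and Snhg12 were higher relative to Gas5 in the models, a comparison also chosen after the values were seen. The ratio of Snhg1 to Gas5 counts was 0.291 ± 0.0642 in tumor free, 0.416 ± 0.0313 in lymphatic and 0.424 ± 0.0750 in hematogenous libraries (SD, n = 4; exact permutation p = 0.0286 and 0.0571 against tumor free). For Snhg12 to Gas5 it was 0.120 ± 0.0248, 0.169 ± 0.0122 and 0.206 ± 0.0413 (exact permutation p = 0.0286 for each model). After adjustment over the 9 ratio tests the smallest p was 0.0643, so none passed.

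Snhg8 and Snhg3 did not pass the test in any comparison. Snhg8, host of Snora24, stood at 59.7, 46.6, 40.5 and 25.6 CPM in the tumor free, 48.5, 48.1, 50.5 and 69.4 CPM in the lymphatic and 64.2, 41.0, 48.7 and 56.3 CPM in the hematogenous replicates. Its tumor free libraries spread more than 2-fold and overlapped both models. The log2 differences were 0.33 (SE 0.22, adjusted p = 0.575), 0.28 (SE 0.22, adjusted p = 0.421) and -0.04 (SE 0.21, adjusted p = 0.944) in the lymphatic, hematogenous and between-model comparisons. Snhg3, host of Snora73a and Snora73b, was the least abundant of the 8, also per kilobase. It stood at 3.16, 7.25, 1.49 and 3.60 CPM in the tumor free, 3.21, 3.39, 2.42 and 2.40 CPM in the lymphatic and 3.02, 2.83, 5.83 and 4.89 CPM in the hematogenous replicates. Its log2 differences, -0.42, 0.11 and 0.54, had standard errors of 0.58 to 0.59, and its tumor free libraries ran from 1.49 to 7.25 CPM. Snhg3 lies in Rcc1 on the same strand, and reads that fit both are not assigned to either by counters of this kind.

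The snoRNAs themselves could not be followed. The older annotation places 10 snoRNA genes inside Gas5, 8 inside Snhg1, 5 inside Snhg12, 2 each inside Snhg3 and Snhg5, and 1 inside Snhg8. Of these, 24 have an ID in the count tables, and all 24 had 0 counts in all 12 libraries. With 3 counts as the limit that a count of 0 allows, this corresponds to at most 0.451 CPM in the shallowest and 0.0690 CPM in the deepest library (counting error only). The values above are those of host RNA and say nothing of snoRNA levels.

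Some pairs of the 8 genes varied together across libraries. Over the 28 pairs, the median Pearson correlation of log2 CPM over the 12 libraries was 0.43, and 23 pairs were above 0. Malat1 and Neat1 had r = 0.86 and rho = 0.87, and r was 0.92 after group means were subtracted. Snhg1 and Snhg12 had r = 0.93 and rho = 0.90, and 0.83 after subtraction. Gas5 followed these hosts, with r = 0.78 to Snhg1 and 0.71 to Snhg12 (0.64 and 0.65 after subtraction). Between the nuclear RNAs and the hosts, deviations from group means went together weakly or in opposite directions, down to -0.49 for Malat1 and Gas5. Over all pairs the median after subtraction was 0.07. Snhg3 had r between -0.27 and 0.20 with the other 7. These values describe 12 libraries that share their scaling, and they carry no test.

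**Figure D4:**
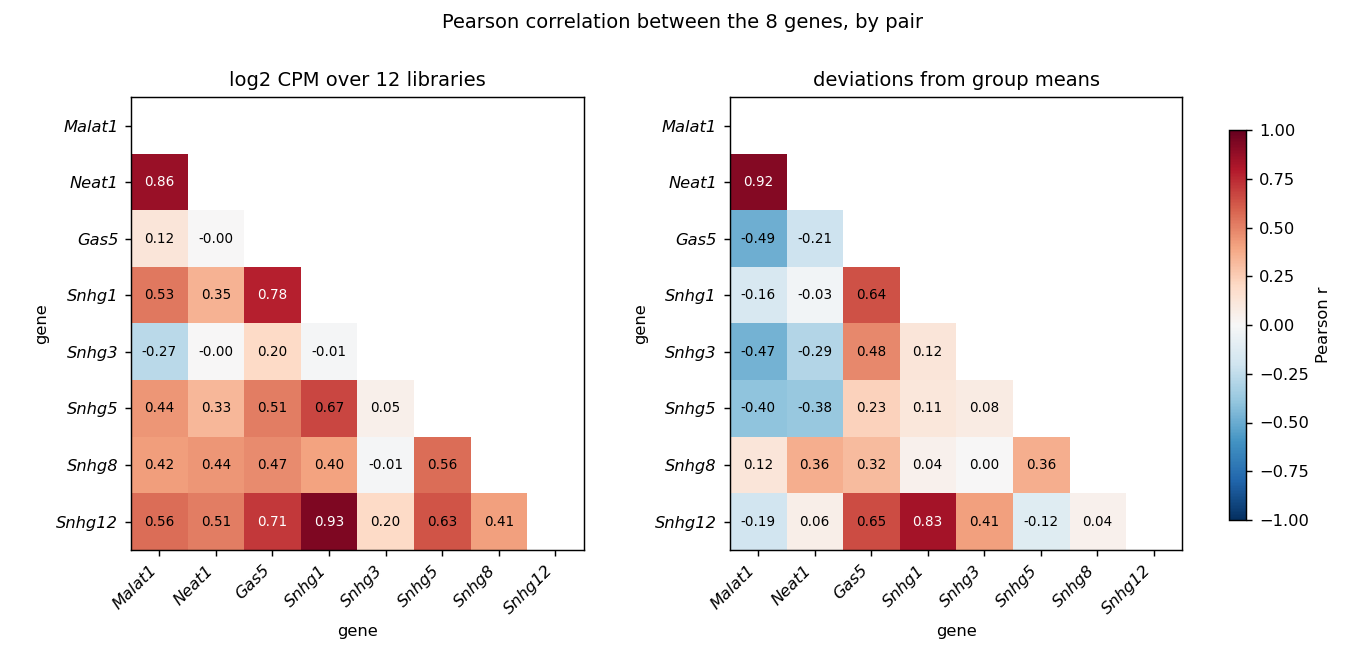
Pearson correlation of log2 CPM for each pair of the 8 genes (both axes) over the 12 libraries, left, and of deviations from group means, right. The pairs Malat1 with Neat1 and Snhg1 with Snhg12 keep r of 0.83 or more in both panels, while the median over all 28 pairs is 0.43 on the left and 0.07 on the right.

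The genes whose levels were most like each of the 8 were ranked by Pearson's r of log2 CPM over the 12 libraries among 9396 genes with a mean of at least 5 CPM, with the 8 themselves left out. For Malat1 they were Golga4, a golgin of the Golgi apparatus, and Bdp1, a subunit of an RNA polymerase III initiation factor, both at 0.94. For Neat1 it was Gimap8, a lymphocyte GTPase, at 0.97. Gas5 was most like Atf4, a transcription factor of the amino acid and stress response, at 0.88 and the Integrator subunit Ints13 at 0.87. Snhg1 was most like the transcription factor Klf4 and the RNA helicase Ddx5, both at 0.93, and Snhg12 was most like the splicing factor Srsf5 at 0.90 and the centriolar protein gene Ccp110 at 0.88. Snhg5 was most like the DNA helicase gene Helq at 0.91 and the integrin gene Itgb3 at 0.90. Snhg8 was most like the helicase gene Ascc3 at 0.91 and Shoc2, a scaffold of Ras signalling, at 0.89, though Spearman's rho with Shoc2 was only 0.59. Snhg3 was most like Fech, the last enzyme of heme synthesis, and Bbs12, both at 0.85. For the other genes named here rho was 0.79 to 0.96. Each value of r was chosen as the top or next of 9396 and is a description only.

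Coding genes next to the 8 gave mixed results. Snhg1 and Slc3a2, the heavy chain of several amino acid transporters, start beside each other and run in opposite directions. Slc3a2 rose with Snhg1 in the lymphatic group, from 75.3 ± 7.78 to 132.0 ± 20.2 CPM (log2 difference 0.81, SE 0.15, adjusted p = 0.00461). In the hematogenous group, where Snhg1 was also called, Slc3a2 differed by 0.22 (SE 0.15, adjusted p = 0.363), and it was lower there than in the lymphatic group by -0.58 (SE 0.15, adjusted p = 0.0211). That last call was lost without lymphatic replicate 2 (0.104), hematogenous replicate 1 (0.104) or hematogenous replicate 3 (0.1098). Malat1 and Neat1 lie side by side, and the coding gene Frmd8 next to Neat1 differed by -0.47 in the hematogenous group (SE 0.17, adjusted p = 0.0631). Zfp949 beside Snhg5, with a log2 difference of 1.00 (SE 0.25, adjusted p = 0.00997), and Phactr4 beside Snhg3, with 0.61 (SE 0.15, adjusted p = 0.00894), rose in the hematogenous group. Of the other coding neighbours or overlapping genes, Serpinc1, Prss12, Rcc1, Syncrip, Trnau1ap, Wdr74 and Frmd8 were called in no comparison, and Rab42 and Ndst3 were too low to be tested.

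Other snoRNA host RNAs were counted as well. In the lymphatic, hematogenous and between-model comparisons edgeR called 0%, 9.09% and 0% of those tested, beside 2.74%, 16.4% and 8.85% of all genes. In a list of 11 genes these counts are near the shares of all genes. Of 11 further hosts tested, 0 were called in the lymphatic group by edgeR, 0 by DESeq2 and 0 by voom (2 at an unadjusted p under 0.05), with a median log2 difference of -0.05. In the hematogenous group 1 of 11 was called, Snhg14, a host in an imprinted region, with a log2 difference of 1.54 (SE 0.49, adjusted p = 0.0358) from a mean of 4.59 CPM, and the median was 0.30. That call was lost in 9 of 24 alternatives, among them without tumor free replicate 1 (0.0810) or 4 (0.0690), lymphatic replicate 4 (0.0536) and hematogenous replicate 3 (0.141) or 4 (0.0770). Between the models 0 of 11 were called by edgeR, 1 by DESeq2 and 2 by voom (2 at an unadjusted p under 0.05). The values nearest to those of Snhg1 were at Snhg15, with 1.07 (SE 0.38, adjusted p = 0.174) and 0.77 (SE 0.38, adjusted p = 0.185) in the lymphatic and hematogenous groups. Zfas1, a host that also starts in a pyrimidine tract, stood at 0.48 (adjusted p = 0.114) and 0.30 (adjusted p = 0.204).

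Among 14 other long noncoding RNAs tested, 1 was called in the hematogenous group and 1 between the models. Each is 7.14% of the list, beside 16.4% and 8.85% of all genes, so neither share exceeds that of all genes. In the lymphatic group 0 were called by edgeR, 0 by DESeq2 and 0 by voom (2 at an unadjusted p under 0.05), where edgeR called 2.74% of all genes. Kcnq1ot1, a nuclear RNA that silences imprinted genes, rose in the hematogenous group by 0.62 (SE 0.18, adjusted p = 0.0215), a call lost without tumor free replicate 2 (0.0543) or hematogenous replicate 1 (0.0789). Ftx, from the X-inactivation center, was higher in the hematogenous than in the lymphatic group by 0.96 (SE 0.23, adjusted p = 0.0137), which was lost without lymphatic replicate 4 (0.0540) or hematogenous replicate 3 (0.0501). Tug1, another largely nuclear RNA, differed by 0.34 in the hematogenous group (adjusted p = 0.0684). The list's median log2 difference was 0.20, 0.35 and 0.28 in the lymphatic, hematogenous and between-model comparisons, beside 0.08, 0.08 and -0.01 over all genes.

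Genes for the proteins of the bodies that Malat1 and Neat1 occupy were counted next. These lists and those that follow were also chosen with earlier results known, so their shares beside those of all genes are descriptions only. Of 20 paraspeckle protein genes, 2 were higher and 1 lower in the lymphatic group, 3 higher and 1 lower in the hematogenous group, and 1 higher and 3 lower between the models. The 4 of 20 called in the hematogenous group are close to the 16.4% of all genes called there. The 3 of 20 in the lymphatic group and 4 of 20 between the models stand beside 2.74% and 8.85% of all genes. Of the 3 lymphatic calls, that of Hnrnpa1 was lost in 15 of 24 alternatives, that of Cirbp in 2 and that of Sfpq in 0. Sfpq, which binds Neat1 and is needed for paraspeckles, rose in both models, by 0.80 (SE 0.14, adjusted p = 0.00295) and 0.55 (SE 0.14, adjusted p = 0.0131). Nono, its partner, fell in the hematogenous group by 0.39 (SE 0.12, adjusted p = 0.0260). Without tumor free replicate 1 (0.0683) or 4 (0.0774) or hematogenous replicate 1 (0.0800) or 4 (0.0519) the call was lost, at log2 differences of -0.31 to -0.40. Cirbp, a cold-induced RNA-binding protein, was higher in the hematogenous than in the lymphatic group by 1.12 (SE 0.14, adjusted p = 0.000168). Of 14 nuclear speckle protein genes, 5 were higher in the hematogenous group and 1 between the models, and in the lymphatic group 0 were called by edgeR, DESeq2 or voom (0 at an unadjusted p under 0.05). The 5 are 35.7% of the list, beside 9.52% of all genes called higher. The largest of these was Srrm2, a scaffold of speckles, with a mean of 1226 ± 169.7 CPM in tumor free and 2183 ± 253 CPM in hematogenous libraries (log2 difference 0.83, SE 0.16, adjusted p = 0.00143). The median over the 14 was 0.04 in that comparison, close to that of all genes.

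Genes for the proteins that bind snoRNAs were counted too. Of 17 snoRNP protein genes, 3 were lower in the hematogenous than in the tumor free group and 3 were lower in the hematogenous than in the lymphatic group, and in the lymphatic group 0 were called by edgeR, DESeq2 or voom (5 at an unadjusted p under 0.05). In both hematogenous comparisons 17.6% of the list was called, close to the 16.4% of all genes against tumor free and above the 8.85% between the models. Their median log2 differences were 0.26 in the lymphatic group, -0.19 in the hematogenous group and -0.59 between the models. Nhp2, a core protein of box H/ACA particles, fell in the hematogenous group by 1.28 (SE 0.31, adjusted p = 0.00869), from 40.6 ± 12.2 to 16.5 ± 7.78 CPM, a call lost with voom (0.0526). Fbl, the methyltransferase of box C/D particles, was lower in the hematogenous than in the lymphatic group, with a log2 difference of -0.97 (SE 0.22, adjusted p = 0.0105), a call lost without lymphatic replicate 2 (0.0563) or hematogenous replicate 1 (0.05002). Of 22 coding genes with pyrimidine tracts or roles in translation, 1 was higher in the lymphatic group, 5 were lower in the hematogenous group, and 8 were lower in the hematogenous than in the lymphatic group. These are 22.7% and 36.4% of the list in the hematogenous comparisons, beside 16.4% and 8.85% of all genes. Fau, which encodes a ribosomal protein, fell in the hematogenous group by 0.90 (SE 0.20, adjusted p = 0.00436), and Cox7c, a respiratory chain subunit, by 0.76 (SE 0.18, adjusted p = 0.00707). None of the 22 was called higher in the hematogenous group. The 1 called higher in the lymphatic group was Hnrnpa1, which is also on the paraspeckle list. It rose there by 0.48 (SE 0.12, adjusted p = 0.0367), a call lost in 15 of 24 alternatives.

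Nonsense-mediated decay removes many spliced host RNAs, so its factors were counted too. Of 19 factors, 1 was higher in the lymphatic group, 6 were higher and 4 lower in the hematogenous group, and 1 was higher and 3 lower between the models, with medians of 0.18, -0.00 and -0.14. In the hematogenous group this is 52.6% of the list, beside 16.4% of all genes. Smg1, the kinase that phosphorylates the central factor Upf1, rose in the hematogenous group by 0.86 (SE 0.16, adjusted p = 0.00120), and Pnrc2, which links the pathway to decapping, fell by 0.60 (SE 0.13, adjusted p = 0.00501). With the share of reads outside annotated features as a covariate, edgeR called 0 genes of these lists in the hematogenous group (13 at an unadjusted p under 0.05), against 29 without it. Higher T cell (3 of 8), myeloid (4 of 8) and erythroid (2 of 5) markers stood beside all hematogenous differences above. Lower NK cell markers (7 of 10) stood beside them too, and the part of these markers in the differences was not tested. In the lymphatic comparison 1 of 8 B cell, 1 of 8 myeloid and 1 of 5 erythroid markers were called higher. Of all genes 2.32% were called higher there. Of 10 NK cell markers 1 was called lower, and of 8 T cell markers 0 were called. All 8 B cell markers had log2 differences above 0, with a median of 1.26 beside 0.08 over all genes. The part of these markers in the lymphatic differences was not tested either.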

How the data were processed

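RNA sequencing counts of 12 libraries were used. The deposited files hold raw read counts per gene, made by the authors. The submitters' processing notes name HTSeq 2.0.2, HISAT2 2.1.0, Trimmomatic 0.39, FastQC 0.11.9 and the build GRCm39. Per the labels' protocols, poly(A) RNA was made into stranded libraries read from a single end. The sources used here give neither the annotation release nor the strand setting. The 5 summary lines of each file, which name no gene, entered no library size or test. From 11.4% to 24.6% of a library's reads lay outside annotated features. Symbols came from GENCODE M21 (GRCm38) and matched 52073 of 56748 IDs. Start regions and their coordinates came from RefSeq on GRCm38.p6, and no coordinates on the build of the counts are printed.

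Group and replicate were taken from the sample titles. The 12 libraries entered 1 edgeR 4.0.16 quasi-likelihood model of group (R 4.3.3, robust, TMM, default filter by group, 9 residual degrees of freedom), with Benjamini-Hochberg adjustment over 16016 genes. Standard errors were derived as |log2 fold change| over the root of the F statistic. Correlations used log2 CPM with a prior count of 2. Permutation tests were two-sided, exact for groups of 4 and with 100000 draws over 12 libraries (SciPy 1.17.1). In simulated counts for 16016 genes the test recovered 40% of 2-fold changes in the lymphatic, 36% in the hematogenous and 48% in the between-model comparison.

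The 8 genes and the lists were chosen with earlier results of these data known. Named genes were the 8, their nearest coding neighbours, up to 3 called genes per list and comparison with the smallest adjusted p, and the 2 genes most like each of the 8. Of the list genes, those without a loss of their call when a library was left out were preferred. Zbtb37 and Rcc1 (overlapping genes), Snhg15, Zfas1 and Tug1 were named after their values were seen. The 24 alternatives covered 3 other scalings, 2 other filters, fits of 2 groups, a replicate block, a covariate, equal depth (6654215 counts), DESeq2 1.42.0, voom with quality weights (limma 3.58.1), leaving out each library, and leaving out 2 libraries, the last chosen after seeing the data. A few genes named by this rule are not reported here.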

Additional observations from a re-analysis of the deposited data

Results flagged for a closer look

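Malat1 stood at 4268 CPM in hematogenous replicate 1, far above the other 3 hematogenous libraries, which lay between 3105 and 3287 CPM. The gap to the nearest of them made up 0.843 of the range of the group, above Dixon's critical value for 4 samples. The same library had the highest Neat1 level and the highest share of reads outside annotated features of the series, and the part of that share in its Malat1 level was not tested. Snhg8 stood at 69.4 CPM in lymphatic replicate 4, while the other 3 lymphatic libraries lay between 48.1 and 50.5 CPM, a gap of 0.889 of the range. For these 8 genes in 3 groups, 24 groups of 4 were examined, and chance flags about 1 in 20.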

How the results depend on the processing

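No log2 difference of the 8 genes that passed the test changed sign in any of the 24 alternatives. In the lymphatic comparison 2 of the 8 were called, 4 without a filter on low counts, 4 without tumor free replicate 3 and hematogenous replicate 1, and 1 to 3 with a library left out. All genes called there numbered 439, against 891 with DESeq2, 843 without those 2 libraries and 255 to 634 with a library left out, and genes of the other lists numbered 4, against 9 without a filter and 2 to 5 with a library left out. In the hematogenous comparison 5 of the 8 were called, 0 by edgeR with the share of reads outside annotated features as a covariate, 3 without the 2 libraries and 4 to 5 with a library left out. All genes called numbered 2625, against 253 with the covariate and 1760 to 3202 with a library left out, and list genes 29, against 0 with the covariate, 19 without the 2 libraries, 18 with voom and 18 to 33 with a library left out. Between the models 0 of the 8 were called, and 1, Neat1, with DESeq2 size factors, library size alone, upper quartile scaling, no filter, the replicate block, equal depth, DESeq2 or voom, and 0 to 1 with a library left out. All genes numbered 1417, against 76 with the covariate, 710 without the 2 libraries, 2169 with DESeq2, 2923 with voom and 620 to 1572 with a library left out, and list genes 21, against 1, 2, 28, 36 and 4 to 27 in the same order. The median correlation between the 8 genes, 0.43, moved to 0.07 for deviations from group means. The cause of these differences was not tested. Library size alone moved the median of all genes between the models from -0.01 to 0.10. Replicate numbers pair nothing in the labels, and same-numbered libraries of different groups correlated between -0.0727 and 0.0590 in their deviations, best with their own number in 4 of 12 cases. A replicate block left 2, 5 and 1 of the 8 called and 362, 2518 and 1439 of all genes. Snhg3 had the fewest counts of the 8, 25 to 136 per library.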
